A study of Mus musculus with 12 samples.

Results

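Fibro-adipogenic genes were examined in satellite cells, the muscle stem cells, sorted from mice with and without *Gli3*. They are 9 genes listed by symbol, *Pdgfra*, *Dcn*, *Lum*, *Ly6a*, *Fbln1*, *Dpp4*, *Pi16*, *Gsn* and *Thy1*, out of 25093 genes in the count table, and all 9 were found in it. The list was chosen by symbol, with the measured levels of these genes in the same libraries, by state and genotype, already known. Their levels and fold changes are therefore given as a description, without p-values. Whether a test over all genes called a member is stated, but is not read as support. Control mice carried Pax7-CreERT2, a tamoxifen-inducible Cre driven from the satellite cell gene *Pax7*, with the R26R-YFP reporter and intact *Gli3* (*Gli3*+/+). The other mice carried the same Cre and reporter with both *Gli3* alleles floxed (*Gli3*∆/∆). All mice were 3 to 4 months old and had received tamoxifen, so Cre, reporter and drug are shared by both groups. Quiescent satellite cells (QSCs) were sorted from uninjured hindlimb muscle, in 3 libraries per genotype, each of which pooled 2 to 3 mice. Activated satellite cells (ASCs) came from muscle injured with cardiotoxin 3 days earlier, also in 3 libraries per genotype, each from 1 mouse. The names of the 6 ASC count columns give the state but match no sample and no genotype in the labels, so these columns were not used and values per library are given for QSCs only. SDs describe the spread between these pools. Standard errors are those of a fold change fitted with edgeR, derived from its F statistic. They rest on an estimate of the spread that is partly shared across genes.

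Fibro-adipogenic progenitors are resident mesenchymal cells that lie between myofibers, carry the PDGF receptor alpha and the surface antigen SCA1, and lay down collagens and proteoglycans. After injury they expand for a short time and support satellite cells, and in chronic damage they can form fibroblasts and adipocytes. They are a lineage apart from satellite cells, which carry PAX7 and α7-integrin. In mouse muscle SCA1 is widely used to separate the 2 types, and SCA1 is the product of *Ly6a*. The QSC gate kept cells positive for α7-integrin and CD34 and negative for CD31, CD45, SCA1 and CD11b, and the ASC gate used VCAM1 in place of CD34. *Ly6a* RNA is therefore a member whose protein the sort selected against, in every group.

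The sequence before the start of transcription is shown for 3 members, the receptor that defines the lineage (*Pdgfra*) and the members with the highest and the lowest level (*Gsn* and *Dpp4*). RefSeq's table of promoters on GRCm38.p6 held 5 of the 9 members in 8 windows, namely *Pdgfra*, *Fbln1*, *Dpp4*, *Pi16* and *Gsn*. *Dcn*, *Lum*, *Ly6a* and *Thy1* were not matched. Each line gives the 250 bases before a start, 5′ to 3′ on the gene's strand, at chr5:75152001-75152250 (plus strand) for *Pdgfra*, chr2:35256109-35256358 (plus strand) for the first start of *Gsn* and chr2:62412232-62412481 (minus strand) for *Dpp4*. Capitals mark the E-box CANNTG, the TATA box TATAAA and the GC box GGGCGG, each searched on both strands.
Pdgfra: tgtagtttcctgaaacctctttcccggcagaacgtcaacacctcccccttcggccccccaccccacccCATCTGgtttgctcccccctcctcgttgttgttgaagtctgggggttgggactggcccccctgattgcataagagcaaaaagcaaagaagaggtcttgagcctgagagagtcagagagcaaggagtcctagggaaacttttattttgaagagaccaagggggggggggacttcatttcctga
Gsn: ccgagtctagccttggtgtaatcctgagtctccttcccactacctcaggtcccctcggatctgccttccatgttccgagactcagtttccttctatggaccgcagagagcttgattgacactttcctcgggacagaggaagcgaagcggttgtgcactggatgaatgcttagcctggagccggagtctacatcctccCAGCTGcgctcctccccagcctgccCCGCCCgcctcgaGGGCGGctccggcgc
Dpp4: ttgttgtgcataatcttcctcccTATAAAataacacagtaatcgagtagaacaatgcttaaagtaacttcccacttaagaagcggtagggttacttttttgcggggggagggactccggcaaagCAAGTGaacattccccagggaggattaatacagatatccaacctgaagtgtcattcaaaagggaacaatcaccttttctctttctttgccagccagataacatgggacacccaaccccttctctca
*Gsn* was the richest of the 3 in G and C, at 60.8%, against 54.4% for *Pdgfra* and 43.6% for *Dpp4*. The median was 52.4% over the 32851 promoters that were read, which leave out 1 chromosome. The *Pdgfra* sequence held 1 E-box, the *Gsn* sequence 1 E-box and 2 GC boxes, and the *Dpp4* sequence 1 TATA box, at base −227 from the start, and 1 E-box. Of these 32851 windows, extended to 50 bases past the start, 72.3% held the E-box, 35.7% the GC box and 13.6% the TATA box anywhere in the window. The core binding sequence of GLI proteins, GACCACCCA, was found in 0 of the 8 windows of members and in 0.253% of the 32851 windows. That these letters are not in the windows says nothing about where GLI3 binds.

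The 6 QSC libraries held 39556784 to 65750131 estimated counts, and levels are given as CPM, counts scaled to a common library size and adjusted with TMM factors of 0.917 to 1.03. Satellite cell markers were high throughout, with *Pax7* at 798 to 1157 CPM. *Gli3*, the deleted gene, was counted at 11.2, 9.71 and 9.75 CPM in *Gli3*+/+ and at 9.54, 10.5 and 6.25 CPM in *Gli3*∆/∆ QSCs (log2 fold change −0.22, standard error 0.22, adjusted p = 0.916, edgeR's quasi-likelihood test). A count over the whole gene does not separate the floxed exon from the rest, so this value does not check the labels. Across all genes edgeR called 88 between the genotypes (thresholds of 0.05 on the adjusted p and 1.2 on the fold), of which 47 were higher and 41 lower in *Gli3*∆/∆.

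RNA of every member was present in QSC libraries sorted against SCA1, over a wide range of levels. Levels of different genes were compared as CPM per kilobase of exon. In *Gli3*+/+ QSCs *Gsn*, which encodes the actin-severing protein gelsolin, stood far above the rest at 726 CPM per kb and ranked 28th of 25093 genes by mean CPM. Decorin, a small proteoglycan that binds collagen (*Dcn*, 13.0 CPM per kb), and the surface glycoprotein CD90 (*Thy1*, 12.2 CPM per kb) followed, and their libraries overlapped in both genotypes. *Ly6a* came next at 5.73 CPM per kb, below every library of *Thy1*. The matrix protein fibulin 1 (*Fbln1*, 1.92 CPM per kb) and the proteoglycan lumican (*Lum*, 1.17 CPM per kb) overlapped each other in *Gli3*+/+ but not in *Gli3*∆/∆ QSCs. The lowest were the secreted CAP-domain protein *Pi16* (0.479 CPM per kb), *Pdgfra* (0.239 CPM per kb) and the membrane peptidase *Dpp4* (0.0585 CPM per kb). *Pi16* and *Pdgfra* were apart in *Gli3*+/+ libraries and overlapped in *Gli3*∆/∆ libraries, at 0.227 and 0.190 CPM per kb. In bulk RNA, a few cells with much of a transcript and many cells with little of it cannot be told apart.

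**Figure D1:**
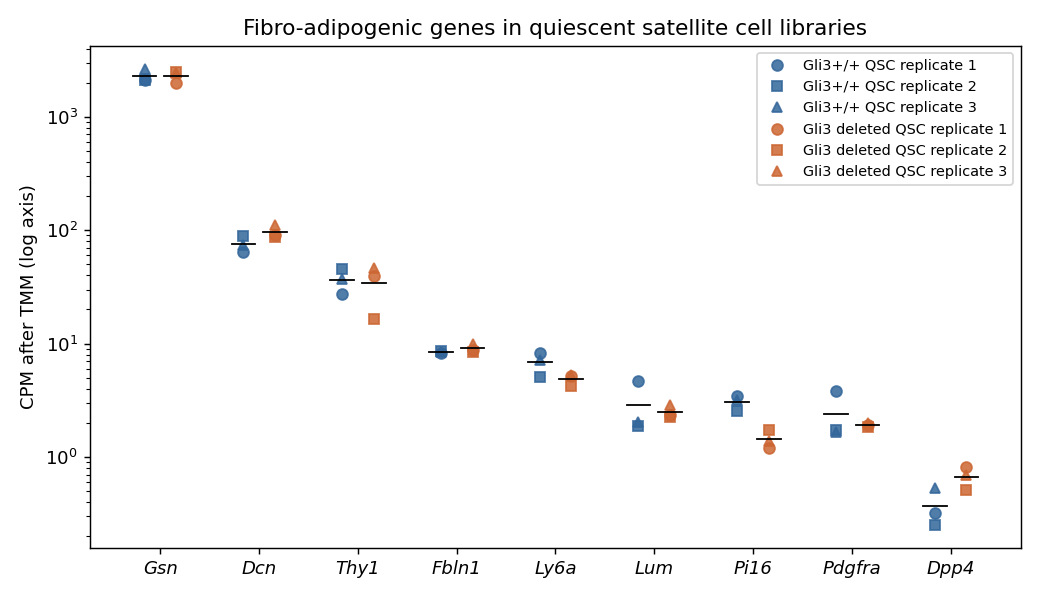
CPM after TMM scaling on a log axis (y) for each fibro-adipogenic gene (x), with 1 point per QSC library (blue, *Gli3*+/+; orange, *Gli3* deleted; the symbol gives the replicate) and a bar at the mean of 3. The genotypes separate for *Pi16*, and *Gli3*+/+ replicate 1 stands above the other 5 libraries for *Pdgfra* and *Lum*; CPM is not divided by gene length.

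None of the 9 members was called between the genotypes by edgeR, against 0.351% of all genes (0.187% higher in *Gli3*∆/∆ and 0.163% lower). Their median log2 fold change was −0.11, against −0.03 over all genes, with 4 members higher and 5 lower on average in *Gli3*∆/∆. The groups did not overlap for 1 of 9 members, *Pi16*, while they did not overlap for 13.0% of all genes (6.57% with *Gli3*∆/∆ lower). Since the list was chosen with this comparison known, nothing about the list is read from these counts. DESeq2 passed 1.64% of the genes it tested (0.822% higher and 0.822% lower in *Gli3*∆/∆) and 1 of the 9 members, *Pi16*, which is likewise no support.

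*Pdgfra*, the receptor tyrosine kinase for PDGF ligands (ENSMUSG00000029231.15, chromosome 5 of GRCm38, 75152292 to 75198215, plus strand), was counted at 3.80, 1.73 and 1.65 CPM in *Gli3*+/+ and at 1.91, 1.82 and 1.99 CPM in *Gli3*∆/∆ QSCs. These are 71 to 153 reads per library. *Gli3*+/+ replicate 1 was 2.19 times the next control, and the other 5 libraries lay close together. The log2 fold change in *Gli3*∆/∆ was −0.32 (standard error 0.36) and turned to 0.17 without *Gli3*+/+ replicate 1.

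Of the 7 PDGF ligands and receptors, *Pdgfra* included, none was called, 4 were higher and 3 lower on average in *Gli3*∆/∆, and their median log2 fold change was 0.04. The receptor-like gene *Pdgfrl* had the highest mean CPM of the family, at 53.5 ± 8.33 CPM in *Gli3*+/+ and 68.2 ± 8.42 CPM in *Gli3*∆/∆ QSCs (SD, n = 3 each). The ligand gene *Pdgfa* was at 19.5 to 25.3 CPM in *Gli3*+/+ and 19.1 to 31.1 CPM in *Gli3*∆/∆ libraries, and the groups overlapped for both genes.

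*Ly6a*, which encodes SCA1 (ENSMUSG00000075602.10, chromosome 15, 74994877 to 74998031, minus strand), was counted at 8.34, 5.11 and 7.24 CPM in *Gli3*+/+ and at 5.15, 4.21 and 5.25 CPM in *Gli3*∆/∆ QSCs. The means were 6.90 ± 1.64 and 4.87 ± 0.576 CPM (SD, n = 3 each), a log2 fold change of −0.50 (standard error 0.24). The groups overlapped, since the second *Gli3*+/+ library lay below 2 of the *Gli3*∆/∆ libraries. Transcripts of the other sort markers were also present. *Itga7* (464 and 448 CPM in *Gli3*+/+ and *Gli3*∆/∆) and *Cd34* (266 and 215 CPM), which the QSC gate selected for, were high. *Vcam1* was also high in these QSC libraries (664 and 645 CPM), though only the ASC gate used it. Of those selected against, *Pecam1* (CD31) was at 32.0 and 32.2 CPM, which per length (5.15 CPM per kb in *Gli3*+/+) is close to *Ly6a*, while *Ptprc* (CD45) was at 0.880 and 0.495 CPM and *Itgam* (CD11b) at 0.663 and 0.446 CPM. None of the 7 sort genes was called.

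*Ly6a* lies among related genes whose sequences are alike, so salmon may share reads between them and their separate values are uncertain. Of 10 LY6 genes in the table none was called, and 8 were lower and 2 higher on average in *Gli3*∆/∆. Among the 8 lower, *Ly6c2*, *Ly6d*, *Ly6g*, *Ly6h* and *Ly6i* lay close to 0, with means of 0.00247 to 0.465 CPM over the QSC libraries. *Ly6c1*, an endothelial and myeloid surface antigen (chromosome 15, 75044018 to 75048830), was at 14.3, 7.01 and 10.95 CPM in *Gli3*+/+ and 5.73, 6.43 and 5.82 CPM in *Gli3*∆/∆ QSCs. Its *Gli3*∆/∆ libraries all lay below the *Gli3*+/+ libraries (log2 fold change −0.84, standard error 0.26, adjusted p = 0.427 with edgeR). *Ly6k*, a gene otherwise known from testis (chromosome 15, 74796874 to 74799986), was at 1.49, 2.52 and 1.16 CPM in *Gli3*+/+ and 6.56, 4.48 and 5.49 CPM in *Gli3*∆/∆ QSCs. That is the opposite order, again with no overlap (log2 fold change 1.67, standard error 0.33, adjusted p = 0.104 with edgeR, and 0.000196 with DESeq2, the lowest of 12 alternatives that reached up to 0.362). *Ly6e* had the highest mean CPM of the family, 55.5 ± 13.6 in *Gli3*+/+ and 67.1 ± 15.6 in *Gli3*∆/∆ QSCs (SD, n = 3 each).

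Among the matrix proteins, *Dcn* (ENSMUSG00000019929.16, chromosome 10, 97479609 to 97518143, plus strand) was counted at 64.8, 88.5 and 73.5 CPM in *Gli3*+/+ and at 90.7, 87.0 and 111 CPM in *Gli3*∆/∆ QSCs. The highest *Gli3*+/+ library lay just above the lowest *Gli3*∆/∆ library. The means were 75.6 ± 12.0 and 96.2 ± 12.8 CPM (SD, n = 3 each), a log2 fold change of 0.35 (standard error 0.16).

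*Lum* lies on the same strand 46984 bases beyond *Dcn* (ENSMUSG00000036446.5, chromosome 10, 97565128 to 97572703). It was counted at 4.67, 1.87 and 2.04 CPM in *Gli3*+/+ and at 2.33, 2.27 and 2.87 CPM in *Gli3*∆/∆ QSCs, and *Gli3*+/+ replicate 1 was 2.29 times the next control, as it was for *Pdgfra*. The log2 fold change of *Lum* was −0.20 (standard error 0.37). Without that library it became 0.35, and that of *Dcn* was 0.25.

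Of 15 small leucine-rich proteoglycans, the family of *Dcn* and *Lum*, none was called. In it 11 were higher and 4 lower on average in *Gli3*∆/∆ QSCs, and the median log2 fold change was 0.21. The basement membrane proteoglycan gene *Prelp* had the highest mean CPM, 875 ± 159 in *Gli3*+/+ and 849 ± 18.2 in *Gli3*∆/∆ QSCs (SD, n = 3 each). Osteoglycin (*Ogn*) was at 469 ± 154 and 653 ± 45.6 CPM and biglycan (*Bgn*) at 141 ± 30.9 and 171 ± 24.3 CPM, both with overlapping groups.

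*Fbln1* (ENSMUSG00000006369.14, chromosome 15, 85205949 to 85286535, plus strand) varied least, with 8.19, 8.52 and 8.40 CPM in *Gli3*+/+ and 8.82, 8.36 and 9.99 CPM in *Gli3*∆/∆ QSCs. Its highest library was 1.22 times its lowest, and its log2 fold change was 0.11 (standard error 0.17). A relative of *Fbln1* was the 1 gene called in all the lists compared here. *Hmcn1*, which encodes the large basement membrane protein hemicentin 1 (ENSMUSG00000066842.18, chromosome 1, 150562524 to 150993435, minus strand), was at 58.9, 50.1 and 53.4 CPM in *Gli3*+/+ and 30.5, 19.9 and 24.6 CPM in *Gli3*∆/∆ QSCs. All *Gli3*∆/∆ libraries lay below all *Gli3*+/+ libraries, with means of 25.0 ± 5.32 and 54.1 ± 4.42 CPM (SD, n = 3 each). The log2 fold change of *Hmcn1* was −1.12 (standard error 0.18, adjusted p = 0.0435 with edgeR), and the call was lost in 7 of 12 alternatives, whose adjusted p ranged from 1.38e-05 to 0.265. *Fbln2*, the family member with the highest mean CPM, was at 741 ± 84.1 and 562 ± 33.6 CPM with no overlap (log2 fold change −0.40, adjusted p = 0.534 with edgeR).

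*Pi16* and *Dpp4* mark the progenitors that lie in fascia and around vessels, and their fold changes had opposite signs. *Pi16* (ENSMUSG00000024011.16, chromosome 17, 29317680 to 29330593, plus strand) was counted at 3.48, 2.52 and 3.16 CPM in *Gli3*+/+ and at 1.202, 1.75 and 1.38 CPM in *Gli3*∆/∆ QSCs. The counts behind these were 140, 170 and 136 against 62.6, 117 and 69.5 estimated reads. Every *Gli3*∆/∆ library lay below every *Gli3*+/+ library, and the ratio given by the fitted fold change was 0.474. The log2 fold change was −1.08 (standard error 0.28), between −1.24 and −0.96 when single libraries were left out.

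*Dpp4*, the gene of CD26 (ENSMUSG00000035000.8, chromosome 2, 62330073 to 62412231, minus strand), was counted at 0.323, 0.252 and 0.534 CPM in *Gli3*+/+ and at 0.821, 0.507 and 0.688 CPM in *Gli3*∆/∆ QSCs. This rests on 13, 17 and 23 reads against 43, 34 and 35. One *Gli3*+/+ library lay above the lowest *Gli3*∆/∆ library, so the groups overlapped. The log2 fold change was 0.87 (standard error 0.46). It ranged from 0.65 without *Gli3*+/+ replicate 2 to 1.23 without *Gli3*+/+ replicate 3. Of the 8 dipeptidyl peptidases and of the 7 CAP-domain genes none was called.

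**Figure D2:**
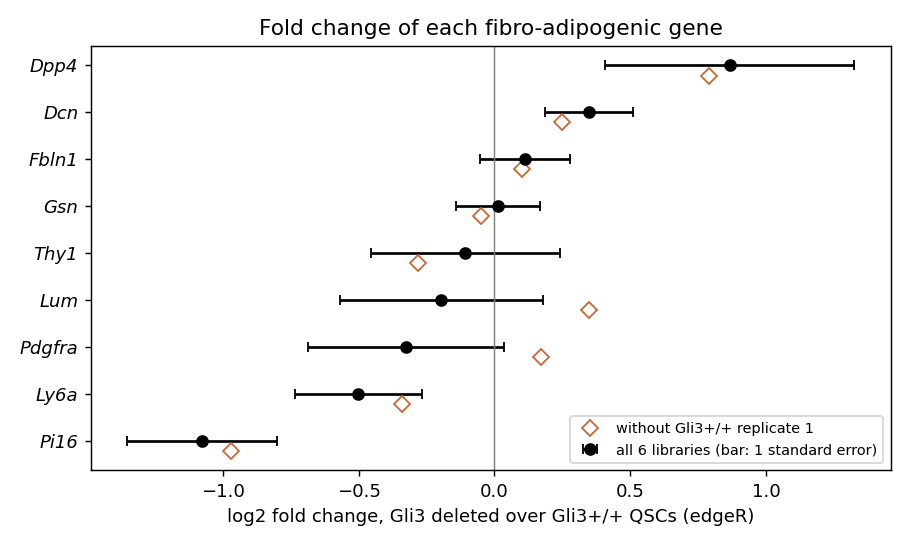
The log2 fold change of each fibro-adipogenic gene in *Gli3*-deleted over *Gli3*+/+ QSCs by edgeR (x; points, all 6 libraries with 1 standard error to each side; diamonds, without *Gli3*+/+ replicate 1), with genes ordered by value (y). *Dpp4* is at 0.87 and *Pi16* at −1.08, and the diamonds of *Lum* and *Pdgfra* lie on the other side of 0 from their points.

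*Gsn* (ENSMUSG00000026879.14, chromosome 2, 35256380 to 35307892, plus strand) was counted at 2101, 2119 and 2657 CPM in *Gli3*+/+ and at 2001, 2502 and 2441 CPM in *Gli3*∆/∆ QSCs. The means of 2292 ± 316 and 2315 ± 273 CPM (SD, n = 3 each) differed by a log2 fold change of 0.01 (standard error 0.16). The annotated locus *Gm43128* overlaps *Gsn* on the same strand, and reads could be shared between them. *Thy1* (ENSMUSG00000032011.5, chromosome 9, 44043384 to 44048579, plus strand) was at 27.3, 45.5 and 36.8 CPM in *Gli3*+/+ and at 39.1, 16.4 and 46.4 CPM in *Gli3*∆/∆ QSCs. Replicate 2 of *Gli3*∆/∆ was the lowest of the 6 libraries and replicate 3 the highest, 2.83 times apart, and the log2 fold change was −0.11 (standard error 0.35).

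The members did not all vary alike. Across the 6 QSC libraries *Lum* and *Pdgfra* were the pair most alike (Pearson's r = 0.962), followed by *Dcn* and *Fbln1* (r = 0.853) and by *Ly6a* and *Pi16* (r = 0.76). *Dcn* and *Pi16* were opposed (r = −0.842), as were *Dpp4* and *Pi16* (r = −0.767). The 6 points are the same libraries for every pair, include both genotypes and share their scaling, so these are descriptions. Among genes with a mean of at least 1 CPM, the patterns most like that of *Pdgfra* were those of *Kif11* (r = 0.99), *Erich1* (r = 0.983) and *Vangl1* (r = 0.98). *Kif11* was at 3.77 CPM in *Gli3*+/+ replicate 1 and at 1.25 to 1.81 CPM in the other 5 libraries. Closest to the mean of the 9 members were *Gdpd1* (r = 0.969), *Fam107b* (r = 0.967) and *Ccnk* (r = 0.965).

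The library that was highest for *Pdgfra*, *Lum*, *Ly6a* and *Pi16*, *Gli3*+/+ replicate 1, also held the most RNA of macrophage and endothelial genes, types that the gate was meant to leave out. It was the highest of the 6 for 9 of 11 macrophage genes and 6 of 9 endothelial genes, against 4 of 9 members. The share was 12.8% of the 14696 genes with a mean of at least 1 CPM in QSCs, a limit not applied to the lists. For the members *Dcn* and *Fbln1* this library was the lowest. Of 35 other fibro-adipogenic genes, described below, 5 were highest in this library (14.3%). These 35 genes summed to 6120 CPM there and to 5250 to 7670 CPM elsewhere. Also highest there were 3 of 9 mural, 2 of 4 lymphocyte, 2 of 7 Schwann cell, 1 of 7 tenocyte, 1 of 7 myofiber and 2 of 13 satellite cell genes. The macrophage genes summed to 33.4 CPM there and to 12.1 to 19.9 CPM in the other libraries. The endothelial genes summed to 272 CPM there and to 161 to 193 CPM elsewhere. No gene of either list was at 0 in all libraries. The part of these cells in the members' values was not tested. Leaving this library out moved *Pi16* to −0.97 and *Ly6a* to −0.34 on the log2 scale, both still lower in *Gli3*∆/∆.

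All 7 Schwann cell genes were lower on average in *Gli3*∆/∆, 6 of them with no overlap (6.57% of all genes were lower without overlap), and they summed to 93.7, 72.3 and 107 CPM in *Gli3*+/+ against 34.6, 51.7 and 50.3 CPM in *Gli3*∆/∆ QSCs. None was called by edgeR. The order of the genotypes is that of *Pi16*, and whether these cells bear on *Pi16* was not tested.

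**Figure D3:**
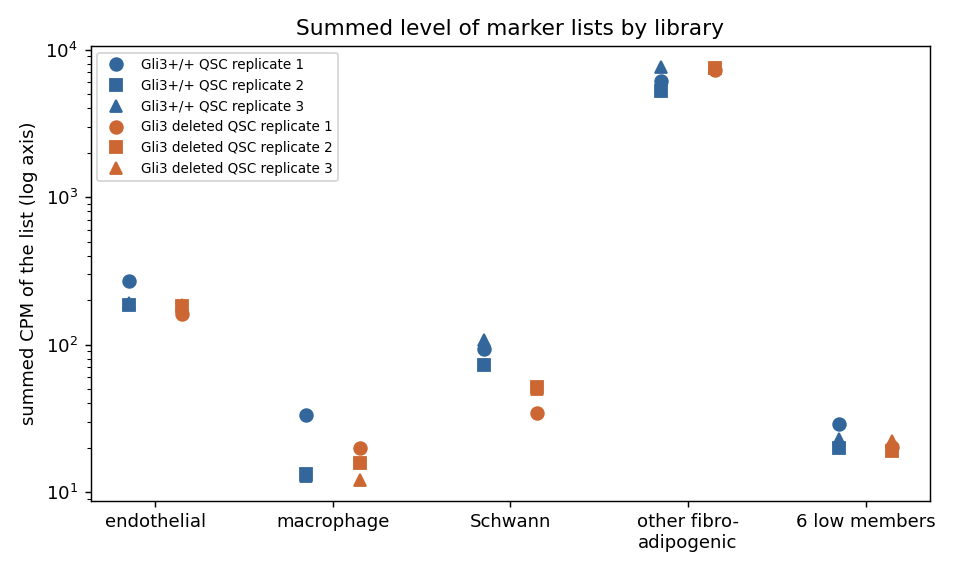
Summed CPM of marker lists on a log axis (y) in each QSC library (blue, *Gli3*+/+; orange, *Gli3* deleted; the symbol gives the replicate), for endothelial, macrophage, Schwann and other fibro-adipogenic genes and for the 6 members other than *Gsn*, *Dcn* and *Thy1* (x). *Gli3*+/+ replicate 1 is highest for the endothelial and macrophage lists and for the 6 members (28.8 CPM against 18.9 to 23.0 CPM), and the Schwann list separates the genotypes. With *Dcn* and *Thy1* added to the 6 (not drawn), the 8 members sum to 121 CPM in this library, the lowest, and to 122 to 179 CPM in the others.

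A second list of 36 genes of fibro-adipogenic progenitors, without the members, was compared in the same way. It had 35 genes in the table, *Tcf21* being the one missing, and none was called by edgeR (4 had an unadjusted p under 0.05, as had 1785 of the 25093 genes). The number was 4 to 10 over the alternatives, highest with limma-voom (9) and without *Gli3*+/+ replicate 3 (10). The share of all genes under those settings is not given, so nothing is read from these numbers. DESeq2 called 2 of the 35, *Clec3b* and *Cd55*, and passed 1.64% of the genes it tested. In *Gli3*∆/∆ QSCs 22 were higher and 13 lower on average, with a median log2 fold change of 0.14 against −0.03 over all genes. The groups did not overlap for 5 higher genes and 1 lower gene, where 6.39% of all genes were higher and 6.57% lower without overlap. The 5 higher genes were *Clec3b*, *Adamts5*, *Mfap5*, *Mfap4* and *Dpt*, and the lower gene was *Cd55*, named here after their values were seen. The whole list summed to 5250 to 7670 CPM per library, where the satellite cell list summed to 6170 to 8920 CPM. Which cells held this RNA was not tested, so these counts do not measure fibro-adipogenic cells.

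*Clec3b*, which encodes the plasminogen-binding protein tetranectin, was at 2.81, 2.64 and 1.51 CPM in *Gli3*+/+ and 4.35, 6.03 and 6.12 CPM in *Gli3*∆/∆ QSCs (log2 fold change 1.24, standard error 0.29, adjusted p = 0.213 with edgeR, and 0.00569 to 0.61 over 12 alternatives). *Cd55*, a regulator of complement, was at 13.7, 17.6 and 14.2 CPM and at 9.75, 9.89 and 8.46 CPM (log2 fold change −0.70, standard error 0.17, adjusted p = 0.243 with edgeR, and 0.0222 to 0.746 over 12 alternatives). The most abundant genes of the list overlapped between groups. The fibrillar collagen gene *Col3a1* was at 2684 ± 855 and 3315 ± 94.8 CPM, the complement inhibitor *Serping1* at 512 ± 51.5 and 483 ± 43.5 CPM and the microfibril gene *Fbn1* at 446 ± 38.9 and 526 ± 49.8 CPM (SD, n = 3 each).

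The columns of the ASC libraries were not used for the comparison of cell states. The deposited tables hold, for each gene, the authors' mean over all 12 libraries of both states. Each gene's share of that mean was divided by its share of the mean of the 6 QSC libraries. The result includes the QSC libraries themselves, cannot be split by genotype or library, and may rest on 1 ASC library. It also sets 2 normalizations side by side and has no replicate error and no test. Over 14696 genes with at least 1 CPM in QSCs the ratio had a median of 0.978, and 10.2% of them reached 2. As the QSC libraries are part of the mean, the ratio has a floor, near the 1st percentile of 0.502, and values close to it cannot show how far a gene was lower in ASCs.

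The ratio was highest for the PDGF receptor and lowest for gelsolin, and it was 2 or more for 3 of 9 members. *Pdgfra* was 4.36 times its QSC share (97.1st percentile of genes), *Lum* 3.85 times (96.6th percentile) and *Dpp4*, itself under 1 CPM in QSCs, 3.06 times (95.4th percentile). *Fbln1* was at 1.95, *Ly6a* at 1.88, *Pi16* at 1.199 and *Dcn* at 1.09. *Thy1* was below 1, at 0.728, and so was *Gsn*, at 0.555, in the 3.82nd percentile. As these genes were chosen with the cell states in view, nothing about the list is read from the count.

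The other fibro-adipogenic genes had a median of 1.06, with 9 of 35 at 2 or more. *Postn*, a matrix protein of injured tissue, was at 27.5 and the collagen gene *Col1a2* at 9.60, while *Dpt*, *Hsd11b1* and *Adamts5* lay between 0.501 and 0.532. The macrophage list, whose CD45 and CD11b the ASC gate also selected against, had a median of 66.7, and all 11 of its genes were at 2 or more. Schwann cell genes had a median of 3.49, tenocyte genes of 2.9, myofiber genes of 2.61, lymphocyte genes of 1.66, mural genes of 1.63, endothelial genes of 1.29 and satellite cell genes of 0.688. Their part in the members' ratios was not tested.

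**Figure D4:**
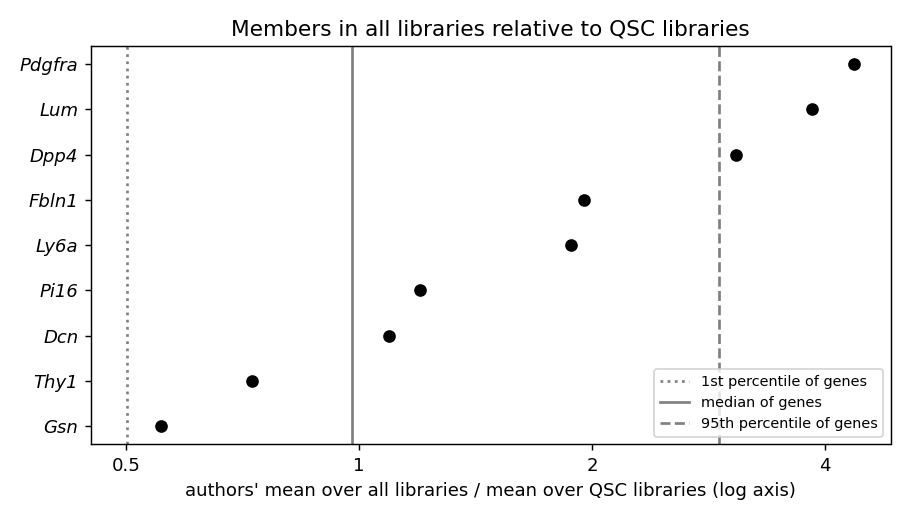
Ratio of each fibro-adipogenic gene's share in the authors' mean over all 12 libraries to its share in the mean of the 6 QSC libraries, on a log axis (x), with genes ordered by value (y) and lines at the 1st percentile, the median and the 95th percentile of genes with at least 1 CPM in QSCs. *Pdgfra*, *Lum* and *Dpp4* lie past the 95th percentile of 2.92, and *Gsn* lies near the 1st percentile of 0.502.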

How the data were processed

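RNA-sequencing of polyadenylated RNA (20 ng per library, strand-specific kit) covered 12 libraries of QSCs and ASCs. The authors quantified reads with salmon v0.13.1 on GRCm38 (GENCODE vM19), summed them to genes with tximport, and kept genes with at least 5 reads in at least 2 samples. The deposited estimated counts are not normalized. 49.2% of QSC values were not whole (tolerance 1e-06), and all were rounded. The deposited comparison tables hold the authors' DESeq2 fold changes and p-values, which were not used, and 1 signal, the authors' mean normalized count over all libraries. The mean is the same in all 4 tables, so the planned ratio of ASC to QSC tables could not be made, and a ratio chosen after seeing the data replaced it. 6 ASC count columns were not used.

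The 6 QSC libraries were fitted with edgeR 4.0.16 in R 4.3.3 (TMM, quasi-likelihood test, Benjamini-Hochberg adjustment over 25093 genes, no further filter). Settings changed one at a time were the tool (DESeq2 1.42.0 or limma-voom 3.58.1 with weights per sample), the size factors, the filter on low counts, a block for the replicate number, the fold threshold, and the removal of single libraries. The likeness of patterns is Pearson's r over 6 libraries on log2(CPM + 0.5). The members and lists were chosen with earlier results of these data known. Members, family and marker genes were named by rule: the 3 of highest level in a list, those called and defining genes. Others (*Clec3b*, *Cd55*, *Ly6k*, *Adamts5*, *Mfap5*, *Mfap4*, *Dpt*, *Postn*, *Col1a2*, *Hsd11b1*) were named after their values were seen. Values of some genes are not reported here. The edgeR test was checked on simulated data: where 200 of 25093 genes were altered, 76% of those altered 4-fold were found and 39% of those altered 2-fold, with 18 false calls. Positions and exon lengths are those of GENCODE vM21, also on GRCm38, in which 96.3% of gene identifiers carry the same version. Opposite-strand genes overlap *Pdgfra*, *Dpp4* and *Pi16* and are not in the count table.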

Additional observations from a re-analysis of the deposited data

How the results depend on the processing

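Of the 9 members, 0 were called by edgeR and in each alternative except DESeq2, which called *Pi16*. Single-library removal moved their median log2 fold change from −0.11 to between −0.31 (without *Gli3*∆/∆ replicate 3) and 0.10 (without *Gli3*+/+ replicate 1). It turned the direction of *Pdgfra* to 0.17 and of *Lum* to 0.35 without *Gli3*+/+ replicate 1, moved *Dpp4* to between 0.65 and 1.23 (without *Gli3*+/+ replicates 2 and 3), and left *Gsn* between −0.05 and 0.13 and *Thy1* between −0.40 and 0.23. *Pi16*, *Ly6a*, *Dcn*, *Fbln1* and *Dpp4* kept their direction in every alternative run. The number of genes called was 88, against 384 with DESeq2, 48 where each library had at least 10 counts, and 58 to 103 when single libraries were left out, 58 being without *Gli3*∆/∆ replicate 3. The list of other fibro-adipogenic genes had 0 calls, and 2 of 35 with DESeq2, which passed 1.64% of the genes it tested. The cause was not tested.

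The replicate number as a block gave 79 calls and changed no call of a member. Libraries of the same number did not deviate together (r = −0.254, −0.029 and −0.057). With 3 libraries per group, these values cannot tell whether the numbers pair the samples. *Hmcn1* lost its call with the block (adjusted p = 0.0528 with edgeR), with at least 10 counts in each library (0.0519), and without *Gli3*+/+ replicate 1, 2 or 3 or *Gli3*∆/∆ replicate 2 or 3 (up to 0.265). *Ly6k* was called with DESeq2 and without *Gli3*+/+ replicate 2 (0.0443 with edgeR). *Dpp4* rests on 13 to 43 reads per library.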
